A study of Mus musculus with 24 samples.

Results

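The protein-folding genes described here are 46 chaperones, co-chaperones and unfolded protein response genes, chosen by name from the 43346 genes of the count table. They comprise 26 genes whose products work mainly in the cytosol, among them the heat shock proteins, 17 whose products fold, sort or degrade proteins of the endoplasmic reticulum (ER) or regulate that work, and 3 mitochondrial chaperones. All 46 passed the filter on low counts, among 17773 genes tested.

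RNA was sequenced from the gastrocnemius, a calf muscle, of C57BL6 mice that were 7 weeks old when injected under the skin. Females given LLC1, a mouse lung adenocarcinoma cell line, were compared with females given PBS vehicle, and males given LLC1 with males given vehicle, with 6 mice in each of the 4 groups. No group carried an engineered allele, and tumors grew for 3 weeks. The labels put the 4 groups on 4 different sequencing lanes, and an effect of lane cannot be told apart from one of group.

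Cells keep separate folding systems in separate compartments. In the cytosol, HSP70 and HSP90 proteins with their J-protein and BAG partners hold and refold client proteins, small heat shock proteins keep unfolded ones from aggregating, and the transcription factor HSF1 raises these genes under heat or proteotoxic stress; in muscle, small heat shock proteins and BAG3 also guard the Z-disc. In the ER, the HSP70 protein BiP, the HSP90 protein GRP94, lectin chaperones and disulfide isomerases fold secreted and membrane proteins. Misfolding there activates the sensors IRE1, PERK and ATF6, which make up the unfolded protein response and act through XBP1, ATF4 and the ATF6 fragment.

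The 2 transcriptional programs read different promoter elements, so promoter windows of members that carry those elements are shown before their values. RefSeq windows on GRCm38.p6, running from 250 bases before to 50 after a transcript start, were matched by symbol for 38 of the 46 members. No window was found for Hspa8, Hsp90aa1, Hsp90ab1, Hsf1, Hspb2, Cryab, Hspa9 or Manf. The ER stress element, searched on both strands as CCAAT, any 9 bases and CCACG, lay in a window of 8 of the 16 ER members that had one and of none of the 20 cytosolic members. These 8 were Calr, Canx, Creld2, Dnajc3, Hsp90b1, Hspa5, Pdia6 and Syvn1. Over all 32841 windows of the same length the share with this element was 0.119%. The windows printed are those of Hspa5, the BiP gene, and of 3 genes called in males below, in both directions: Hspa5 chr2:34771840-34772139 (+ strand), Canx chr11:50325624-50325923 (- strand), Syvn1 chr19:6046326-6046625 (+ strand) and Pdia6 chr12:17266339-17266638 (+ strand). Capitals mark the ER stress element, which reads in reverse where it lies on the other strand.
Hspa5: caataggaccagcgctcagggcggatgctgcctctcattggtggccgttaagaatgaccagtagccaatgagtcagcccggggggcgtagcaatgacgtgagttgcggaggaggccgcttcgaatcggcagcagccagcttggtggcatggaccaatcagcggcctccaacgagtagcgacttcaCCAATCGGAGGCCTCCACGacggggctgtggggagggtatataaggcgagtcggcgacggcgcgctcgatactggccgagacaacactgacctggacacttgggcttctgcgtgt
Canx: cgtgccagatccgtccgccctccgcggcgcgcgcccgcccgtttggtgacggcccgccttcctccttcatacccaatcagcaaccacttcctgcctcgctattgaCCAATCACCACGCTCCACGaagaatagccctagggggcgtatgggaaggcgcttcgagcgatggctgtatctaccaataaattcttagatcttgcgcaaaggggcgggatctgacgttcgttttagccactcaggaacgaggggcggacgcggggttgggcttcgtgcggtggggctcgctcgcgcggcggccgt
Syvn1: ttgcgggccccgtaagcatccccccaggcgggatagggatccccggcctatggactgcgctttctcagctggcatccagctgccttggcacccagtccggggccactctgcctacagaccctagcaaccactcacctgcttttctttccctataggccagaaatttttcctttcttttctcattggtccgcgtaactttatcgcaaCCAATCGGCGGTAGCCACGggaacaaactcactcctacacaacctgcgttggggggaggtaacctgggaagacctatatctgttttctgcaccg
Pdia6: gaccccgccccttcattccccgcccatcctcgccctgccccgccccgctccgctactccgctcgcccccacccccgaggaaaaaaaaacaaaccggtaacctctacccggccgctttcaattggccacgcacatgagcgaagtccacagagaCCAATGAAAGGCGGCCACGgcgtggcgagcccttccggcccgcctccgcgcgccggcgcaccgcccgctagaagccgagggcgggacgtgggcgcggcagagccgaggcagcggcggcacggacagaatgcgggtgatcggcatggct

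The heat shock element was searched on both strands as GAA, any 2 bases, TTC, any 2 bases and GAA, or its inverse beginning with TTC, so that matches may overlap. It lay in a window of 2 of the 20 cytosolic members, Hsph1 and Dnajb6, of both mitochondrial members that had one, Hspd1 and Hspe1, and of no ER member. The share among all windows was 0.603%. Only this exact pattern was searched. Looser forms were not, so a window without a match, such as that of Hspa1a or Hspa1b, is not shown to lack the element. Hspd1 and Hspe1 are read in opposite directions from one stretch, so their windows hold the same 2 overlapping matches. The windows printed are Hsph1 chr5:149636266-149636565 (- strand), Dnajb6 chr5:29735648-29735947 (+ strand) and Hspe1 chr1:55087898-55088197 (+ strand), with the element in capitals.
Hsph1: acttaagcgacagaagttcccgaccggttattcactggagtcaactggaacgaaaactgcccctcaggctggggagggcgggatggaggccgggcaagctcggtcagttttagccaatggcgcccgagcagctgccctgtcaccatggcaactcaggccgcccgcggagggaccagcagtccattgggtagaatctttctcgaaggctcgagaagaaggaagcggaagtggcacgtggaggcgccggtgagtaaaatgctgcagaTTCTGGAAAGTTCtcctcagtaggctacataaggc
Dnajb6: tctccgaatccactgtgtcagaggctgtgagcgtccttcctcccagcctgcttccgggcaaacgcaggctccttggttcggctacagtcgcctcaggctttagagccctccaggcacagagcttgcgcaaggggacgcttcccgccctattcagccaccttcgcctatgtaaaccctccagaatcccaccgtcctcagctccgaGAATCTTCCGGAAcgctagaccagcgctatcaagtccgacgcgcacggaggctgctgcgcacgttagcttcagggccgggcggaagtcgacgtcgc
Hspe1: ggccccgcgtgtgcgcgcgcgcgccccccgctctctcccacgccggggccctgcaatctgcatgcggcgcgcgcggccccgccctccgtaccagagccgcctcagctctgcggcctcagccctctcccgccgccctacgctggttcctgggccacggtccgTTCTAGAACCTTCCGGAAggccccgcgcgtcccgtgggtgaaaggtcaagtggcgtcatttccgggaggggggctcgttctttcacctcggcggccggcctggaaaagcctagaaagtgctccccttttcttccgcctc
Another pattern, TGACG followed directly by TGG, which XBP1 and ATF6 can bind, lay in no member's window and in 0.676% of all windows. A match is a description of these letters and says nothing of whether a factor was bound.

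The libraries held 26.2 M to 47.4 M counts (M for mega). Total counts did not separate LLC1 from vehicle mice in females (exact two-sided permutation p = 0.913) or males (p = 0.838). Muscle fibre markers dominated every group. The 6 fibre markers summed to 104404 to 159630 counts per M counts of scaled library (CPM) in LLC1 females against 126362 to 159965 CPM in vehicle females, and to 102863 to 156528 CPM in LLC1 males against 128263 to 168178 CPM in vehicle males. All 6 had negative fold changes in both sexes, and 1 was called lower in females and 2 in males. Markers of other cells moved with LLC1. The summed level of the 8 neutrophil markers was 47.6 to 144 CPM in LLC1 females against 0.88 to 1.99 CPM in vehicle females, and 48.6 to 148 CPM in LLC1 males against 0.75 to 2.03 CPM in vehicle males. The 7 erythroid markers summed to 1234 to 19989 CPM in LLC1 females against 474 to 1029 CPM in vehicle females, and to 1211 to 4295 CPM in LLC1 males against 426 to 1083 CPM in vehicle males. The 6 fibroblast markers summed to 618 to 1432 CPM in LLC1 females against 1026 to 2520 CPM in vehicle females, and to 865 to 1083 CPM in LLC1 males against 1466 to 3037 CPM in vehicle males. The 6 markers of plasma and B cells, which are rich in ER chaperones, summed to 11.8 to 21.8 CPM in LLC1 females against 18.4 to 28.8 CPM in vehicle females, and to 13.7 to 70.7 CPM in LLC1 males against 35.1 to 66.9 CPM in vehicle males. Single genes of this list went both ways: of the 5 tested, none was called in females, and 2 were called higher and 2 lower in males, with log2 fold changes from −1.01 to 2.14. The table held 5 of the 6 macrophage markers, which summed to 113 to 265 CPM in LLC1 females against 124 to 261 CPM in vehicle females, and to 186 to 249 CPM in LLC1 males against 147 to 252 CPM in vehicle males. No marker was at 0 in all libraries. The part of these cells in the values below was not tested.

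In vehicle muscle the members spanned a wide range of levels per gene length. Cryab, the αB-crystallin small heat shock protein of the muscle Z-disc, stood highest with 491 ± 111 CPM per kilobase in females and 327 ± 90.4 in males (SD, n = 6 each). Hspb6, another small heat shock protein, came next in females with 284 ± 42.6 CPM per kilobase, level with the cytosolic HSP90 gene Hsp90ab1 at 281 ± 12.7, and these neighbours did not differ beyond their spread. In males Hsp90ab1 stood at 317 ± 17.7 CPM per kilobase, within the spread of Cryab, and Hspb6 at 218 ± 30.0. Hspa8, the constitutive HSP70, followed with 205 ± 17.8 CPM per kilobase in females and 196 ± 14.5 in males. The 3 most abundant ER members lay well below these, and in females they did not differ beyond their spread. Herpud1, an ER membrane protein of the degradation machinery, had 46.3 ± 2.48 CPM per kilobase in females and 53.5 ± 7.46 in males. Calr, the calreticulin gene, had 45.3 ± 5.12 CPM per kilobase in females and 42.2 ± 2.12 in males, and Hspa5 had 43.0 ± 4.53 in females and 41.1 ± 5.29 in males. The stress-inducible HSP70 genes were among the lowest: Hspa1b had 1.88 ± 0.647 CPM per kilobase in females and 1.31 ± 0.563 in males, within the spread of the ER protein gene Sdf2l1 at 2.03 ± 0.495 in females and 1.41 ± 0.475 in males.

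**Figure D1:**
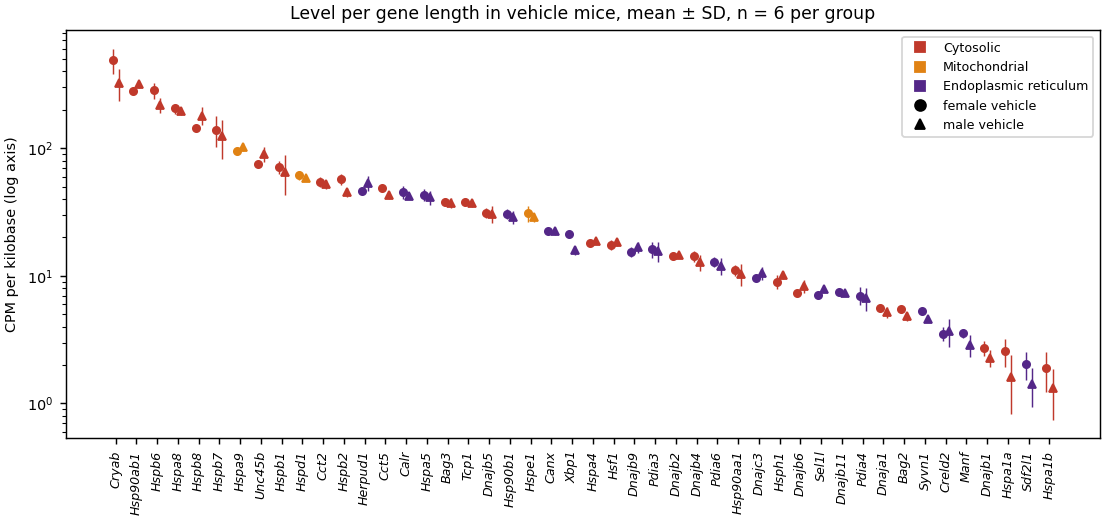
Mean level per gene length (CPM per kilobase, log axis) of the 46 members in vehicle mice, ordered by the mean of both sexes, with SD as bars and 6 mice per point; circles are females and triangles males. Cytosolic genes fill the upper end, with Cryab at 491 CPM per kilobase in females, while the inducible Hspa1a and Hspa1b stand at the lower end.

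In LLC1 mice more cytosolic chaperone genes rose than fell, and most of the calls were in males. In males 16 of the 46 members rose and 3 fell, and 27 did not pass the test (edgeR quasi-likelihood test, adjusted p under 0.05 over all genes tested). That is 41.3% of members called, against 36.3% of all genes, and 34.8% higher, against 19.5% of all genes called higher and 16.8% called lower. In females 2 members rose, 1 fell and 43 did not pass. That is 6.52% of members called, against 9.92% of all genes, of which 4.97% were called higher and 4.95% lower, so the female share was below the background. The median log2 fold change of the members was 0.13 in females and 0.16 in males, against medians over all genes of −0.01 and 0.01. The members were chosen with earlier results of these data known, so these shares and medians describe the list and do not test it. In whole muscle, a change in the number of cells of a type and a change in RNA per cell cannot be told apart.

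By compartment, 12 of 26 cytosolic members rose in males and 1 fell, with a median log2 fold change of 0.37, whereas 4 of 17 ER members rose and 2 fell, with a median of 0.05. Against the 19.5% of all genes called higher in males, 46.2% of cytosolic and 23.5% of ER members were called higher. In females all 3 calls were cytosolic, with 2 genes higher and 1 lower and a median of 0.22; DESeq2 called 7 cytosolic genes higher and 1 lower. With DESeq2 6.32% of all genes were called higher in females and 6.41% lower. No ER member was called in females by edgeR, DESeq2 or limma-voom, and the median was 0.12. In the edgeR fit 3 of the 17 had an unadjusted p under 0.05, against 4534 of all 17773 genes. The male counts leaned on one animal. Without LLC1 male 1-5, 7 cytosolic members were higher and 1 lower with a median of 0.24, and 3 ER members were higher and none lower. That is 26.9% of cytosolic and 17.6% of ER members called higher, against 15.0% of all genes in the same fit. The compartments were not tested against each other.

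The summed level of the cytosolic members was 5654 to 7420 CPM in LLC1 females, median 6352 CPM, against 4652 to 5828 CPM in vehicle females, median 5294 CPM. It was 5211 to 8352 CPM in LLC1 males, median 6234 CPM, against 4594 to 5612 CPM in vehicle males, median 4962 CPM. The summed level of the ER members was 987 to 1377 CPM in LLC1 females against 966 to 1156 CPM in vehicle females, and 1020 to 1325 CPM in LLC1 males against 952 to 1098 CPM in vehicle males. All 4 of these pairs overlapped. Abundant genes such as Hsp90ab1 and Hspa8 weigh most in these sums.

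**Figure D2:**
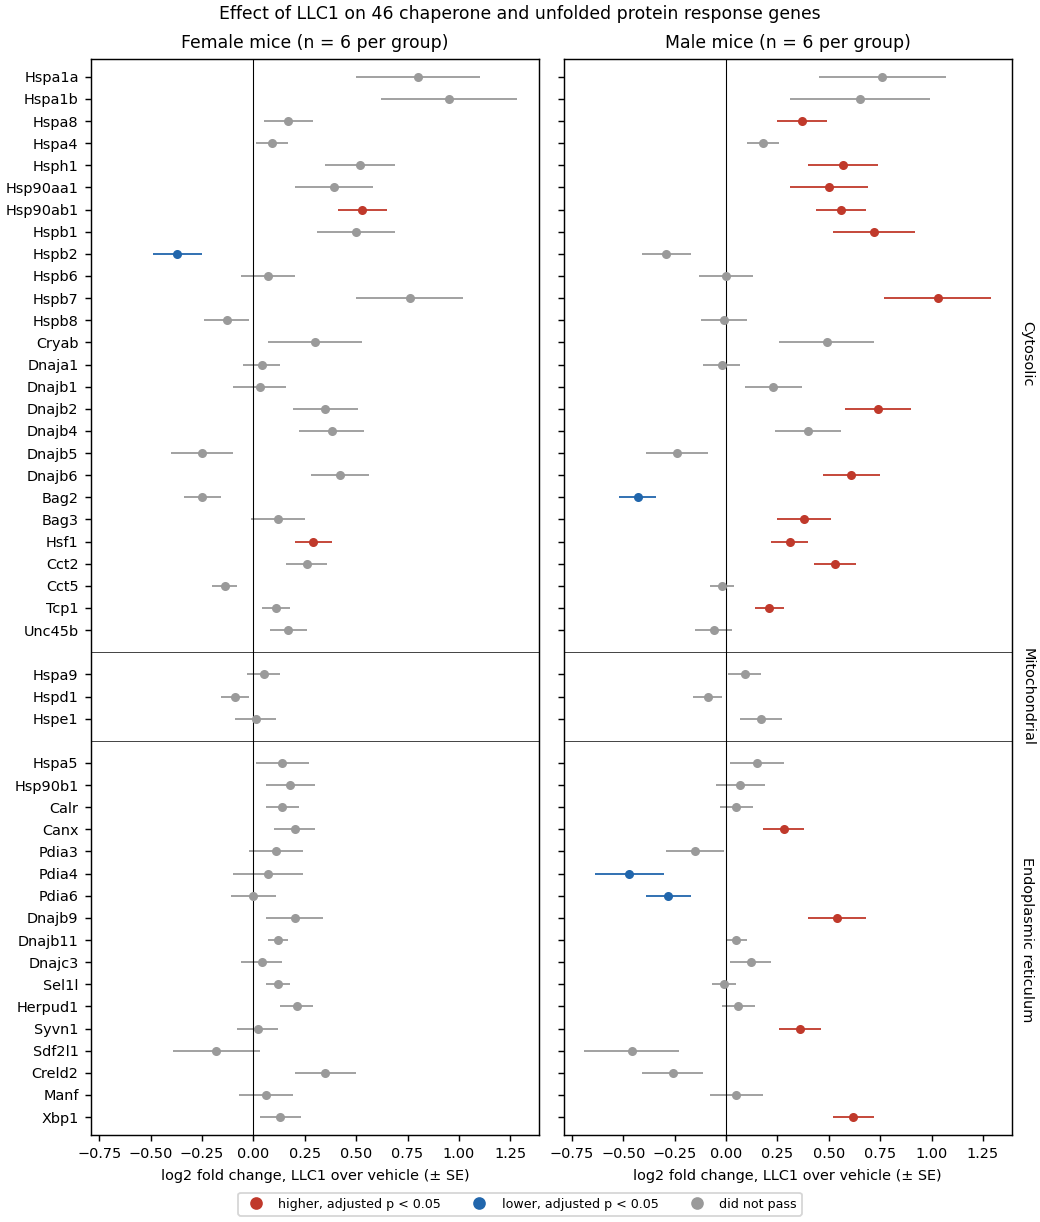
log2 fold change of each member, LLC1 over vehicle, with its standard error, in females (left) and males (right), ordered by compartment; red and blue mark genes called higher and lower at an adjusted p under 0.05, and grey those that did not pass. In males 12 cytosolic genes are red and 1 blue, and the ER genes hold 4 red and 2 blue points; in females 3 points are coloured, all cytosolic.

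**Figure D3:**
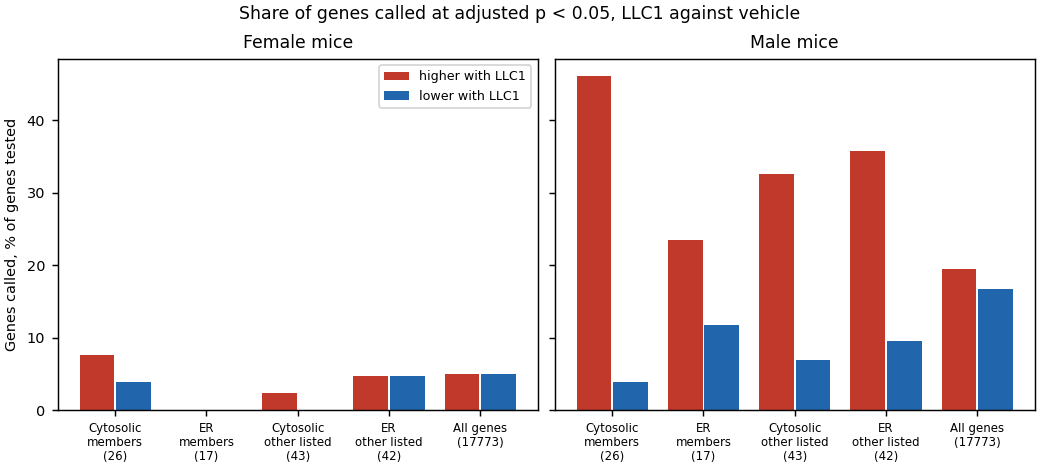
Share of genes called higher (red) and lower (blue) with LLC1, as a percentage of the genes tested in each list (number in brackets), in females (left) and males (right). The cytosolic members reach 46.2% higher in males and the ER members 23.5%, while the other listed cytosolic and ER genes reach 32.6% and 35.7%, and all genes 19.5%.

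Both cytosolic HSP90 genes rose in males, and Hsp90ab1 rose in females too. Hsp90ab1, the constitutive HSP90 (ENSMUSG00000023944, chr17:45567775-45573271 on mm10), had 1036 to 1433 CPM in LLC1 females, median 1221 CPM, against 792 to 895 CPM in vehicle females, median 852 CPM. It had 1022 to 1984 CPM in LLC1 males, median 1380 CPM, against 853 to 997 CPM in vehicle males, median 970 CPM. Every LLC1 mouse stood above every vehicle mouse of its sex. On the log2 scale the change was 0.53 ± 0.12 in females (SE, adjusted p = 0.00533) and 0.56 ± 0.12 in males (adjusted p = 9.76e-04), and both calls held with any single library left out. The female call was lost with a block on the full mouse number (adjusted p = 0.106).

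Hsp90aa1, the stress-inducible HSP90, varied more between mice. It had 37.6 to 78.9 CPM in LLC1 females, median 61.2 CPM, against 39.9 to 49.0 CPM in vehicle females, median 42.1 CPM. It had 37.8 to 92.0 CPM in LLC1 males, median 51.6 CPM, against 29.6 to 51.0 CPM in vehicle males, median 42.0 CPM. The groups overlapped in both sexes, and LLC1 females lay on both sides of the vehicle range. The gene rose in males, by a log2 fold change of 0.50 ± 0.19 (adjusted p = 0.0441), and in females the value was 0.39 ± 0.19 (adjusted p = 0.195). Without LLC1 male 1-5 the male value was 0.31 (adjusted p = 0.186). The call was also lost without LLC1 males 1-4 or 2-1, vehicle males 1-2, 1-4, 2-4 or 2-5, LLC1 female 1-4 or vehicle female 2-2, with adjusted p up to 0.101 among these. Limma-voom (adjusted p = 0.0552), upper-quartile scaling (0.0634), no filter (0.0847) and the libraries of that comparison only (0.0689) lost the male call too.

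All 5 HSP70 and HSP110 members had positive fold changes in both sexes, and 2 rose in males, where 19.5% of all genes were called higher. The 6 other listed HSP70 and HSP110 genes did not share this. In males 0 of them rose and 2 fell, with a median log2 fold change of −0.12, and in females 1 rose. Hspa8 had 789 to 1115 CPM in LLC1 females, median 976 CPM, against 747 to 941 CPM in vehicle females, median 855 CPM. It had 774 to 1539 CPM in LLC1 males, median 990 CPM, against 754 to 898 CPM in vehicle males, median 799 CPM. 5 of the 6 LLC1 males stood above all vehicle males. The male log2 fold change was 0.37 ± 0.12 (adjusted p = 0.0189) and was 0.23 without LLC1 male 1-5 (adjusted p = 0.0795); in females it was 0.17 ± 0.12 (adjusted p = 0.382). Hsph1, the HSP110 nucleotide exchange factor whose window above holds a heat shock element, had 65.1 to 117 CPM in LLC1 females, median 89.5 CPM, against 54.4 to 75.6 CPM in vehicle females, median 62.3 CPM. It had 75.1 to 182 CPM in LLC1 males, median 96.4 CPM, against 64.7 to 80.1 CPM in vehicle males, median 70.5 CPM. In each sex 4 of 6 LLC1 mice exceeded all vehicle mice. It rose in males by a log2 fold change of 0.57 ± 0.17 (adjusted p = 0.0124), or 0.35 without LLC1 male 1-5 (adjusted p = 0.0538), and in females the value was 0.52 ± 0.17 (adjusted p = 0.0533). Hspa4, another HSP110-type factor, gave 0.09 in females and 0.18 in males and did not pass in either.

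The inducible HSP70 genes Hspa1a and Hspa1b are near-identical neighbours on chromosome 17, so how reads were split between them is uncertain. Hspa1a had 7.22 to 18 CPM in LLC1 females, median 13.7 CPM, against 5.74 to 10.1 CPM in vehicle females, median 6.92 CPM. It had 4.21 to 13.5 CPM in LLC1 males, median 8.48 CPM, against 2.25 to 8.40 CPM in vehicle males, median 4.39 CPM. 5 of 6 LLC1 females and 3 of 6 LLC1 males exceeded all vehicle mice of their sex. The log2 fold change was 0.80 ± 0.30 in females (adjusted p = 0.0932) and 0.76 ± 0.31 in males (adjusted p = 0.0602), so neither passed. Hspa1b had 4.71 to 15.1 CPM in LLC1 females, median 10.4 CPM, against 3.65 to 7.62 CPM in vehicle females, median 4.42 CPM. It had 2.45 to 9.92 CPM in LLC1 males, median 5.63 CPM, against 2.06 to 5.86 CPM in vehicle males, median 3.45 CPM. Its values overlapped in the same way. The log2 fold change was 0.95 ± 0.33 in females (adjusted p = 0.0674) and 0.65 ± 0.34 in males (adjusted p = 0.137). The male value was 0.43 without LLC1 male 2-1. With the counts of both genes summed, the log2 fold change was 0.87 in females (adjusted p = 0.083) and 0.72 in males (adjusted p = 0.0851). These genes lay near the threshold. DESeq2 called Hspa1a in females (adjusted p = 0.0461) and males (adjusted p = 0.0271) and Hspa1b in females (adjusted p = 0.0258). Hspa1a also passed without LLC1 female 2-5 (adjusted p = 0.0482), LLC1 males 2-2 (0.0281) or 2-4 (0.0331) or vehicle male 1-4 (0.0179). Hspa1b passed in females without LLC1 female 2-5 (adjusted p = 0.0283), vehicle female 1-1 (0.0492) or LLC1 male 2-2 (0.0497).

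The 6 small heat shock proteins moved in different directions. Hspb7, the cardiovascular and muscle small heat shock protein that binds filamin C, had the largest fold change of any called member (ENSMUSG00000006221, chr4:141420779-141425311). It had 526 to 894 CPM in LLC1 females, median 599 CPM, against 265 to 527 CPM in vehicle females, median 376 CPM. It had 345 to 1096 CPM in LLC1 males, median 595 CPM, against 207 to 467 CPM in vehicle males, median 356 CPM. In each sex 5 of 6 LLC1 mice stood above all vehicle mice. It rose in males by a log2 fold change of 1.03 ± 0.26 (adjusted p = 0.00446), which is 2.04-fold, and in females the value was 0.76 ± 0.26 (adjusted p = 0.0671).

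Hspb1, the HSP27 equivalent, had 84.3 to 141 CPM in LLC1 females, median 92.9 CPM, against 62.0 to 84.9 CPM in vehicle females, median 73.2 CPM. It had 86.0 to 157 CPM in LLC1 males, median 96.8 CPM, against 43.9 to 105 CPM in vehicle males, median 66.3 CPM. Vehicle males spread widely and 2 LLC1 males exceeded all of them. It rose in males by 0.72 ± 0.20 on the log2 scale (adjusted p = 0.00622), and in females the value was 0.50 ± 0.19 (adjusted p = 0.105). The male calls of Hspb1 and Hspb7 held with any single library left out. That of Hspb7 was lost with a block on the full mouse number (adjusted p = 0.119).

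Cryab had 502 to 1143 CPM in LLC1 females, median 666 CPM, against 420 to 761 CPM in vehicle females, median 578 CPM. It had 285 to 759 CPM in LLC1 males, median 508 CPM, against 257 to 513 CPM in vehicle males, median 400 CPM. The groups overlapped in both sexes, and the female maximum came from mouse 2-1. Neither log2 fold change passed, at 0.30 ± 0.23 in females (adjusted p = 0.43) and 0.49 ± 0.23 in males (adjusted p = 0.0903). The female value was 0.12 without LLC1 female 2-1, and the male value was 0.63 and passed without LLC1 male 2-4 (adjusted p = 0.0295).

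Hspb2, a muscle small heat shock protein whose gene lies head to head with Cryab, fell in females. It had 28.0 to 50.5 CPM in LLC1 females, median 35.1 CPM, against 42.7 to 56.4 CPM in vehicle females, median 47.4 CPM. It had 23.9 to 38.5 CPM in LLC1 males, median 30.9 CPM, against 32.6 to 41.7 CPM in vehicle males, median 38.5 CPM. 5 of 6 LLC1 females and 4 of 6 LLC1 males lay below all vehicle mice of their sex. The log2 fold change was −0.37 ± 0.12 in females (adjusted p = 0.0435) and −0.29 ± 0.12 in males (adjusted p = 0.0585). The female call was lost with 17 of the 24 libraries left out, with adjusted p between 0.0501 and 0.156. These were LLC1 females other than 2-5, each vehicle female, LLC1 males 2-1 and 2-5, and vehicle males 1-1, 1-3, 2-4 and 2-5. The kit does not mark strand, and in GENCODE M21 30.2% of the Hspb2 exon length overlaps Cryab exons on the opposite strand, although the spans in the deposited table (chr9:50751072-50752354 and chr9:50752758-50756633) do not overlap; Cryab had 14.5 times as many counts. Hspb6 and Hspb8 did not pass in either sex, with log2 fold changes between −0.13 and 0.07.

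Among the J proteins, which bring clients to HSP70 and trigger its ATPase, Dnajb2 and Dnajb6 rose in males. Dnajb2 had 69.6 to 84.7 CPM in LLC1 females, median 76.6 CPM, against 57.3 to 67.8 CPM in vehicle females, median 59.2 CPM. It had 65.2 to 185 CPM in LLC1 males, median 95.4 CPM, against 55.7 to 64.3 CPM in vehicle males, median 62.8 CPM. The groups were fully apart in both sexes. Its log2 fold change was 0.74 ± 0.16 in males (adjusted p = 0.00114) and 0.35 ± 0.16 in females (adjusted p = 0.162), and the difference between the sexes did not pass (adjusted p = 0.472). Without LLC1 male 1-5 the male value was 0.49 and still passed. Dnajb6, which keeps aggregation-prone proteins soluble and is mutated in a human limb-girdle muscular dystrophy, had 49.4 to 64.0 CPM in LLC1 females, median 56.6 CPM, against 39.4 to 44.3 CPM in vehicle females, median 42.9 CPM. It had 50 to 119 CPM in LLC1 males, median 68.9 CPM, against 40.3 to 55.4 CPM in vehicle males, median 47.3 CPM. The female groups were fully apart and the male groups overlapped. Its log2 fold change was 0.61 ± 0.14 in males (adjusted p = 0.00208) and 0.42 ± 0.14 in females (adjusted p = 0.0557). The other J proteins of the cytosol did not pass in either sex. Dnajb4 gave 0.38 in females and 0.40 in males, Dnajb5 −0.25 and −0.24, Dnajb1 0.03 and 0.23, and Dnaja1 0.04 and −0.02.

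The BAG co-chaperones, which release client proteins from HSP70, were called in opposite directions in males. Bag3, which directs damaged filamin to autophagy in muscle, had 99.0 to 117 CPM in LLC1 females, median 106 CPM, against 93.4 to 109 CPM in vehicle females, median 95.9 CPM. It had 79.5 to 192 CPM in LLC1 males, median 120 CPM, against 82.4 to 105 CPM in vehicle males, median 100 CPM. LLC1 males lay on both sides of the vehicle range, with 4 above it and 1 below. It rose in males by 0.38 ± 0.13 on the log2 scale (adjusted p = 0.0283), and in females the value was 0.12 ± 0.13 (adjusted p = 0.623). The male value was 0.22 without LLC1 male 1-5 (adjusted p = 0.132), and the call was also lost without LLC1 males 2-1 (0.0748) or 2-4 (0.0518) or vehicle males 1-2 (0.0653) or 2-5 (0.0533). Limma-voom (adjusted p = 0.0574) and the libraries of that comparison only (0.102) lost the male call too. Bag2, which holds back the ubiquitin ligase CHIP, had 11.9 to 15.9 CPM in LLC1 females, median 14.1 CPM, against 15.7 to 18.8 CPM in vehicle females, median 16.3 CPM. It had 8.81 to 13.4 CPM in LLC1 males, median 10.5 CPM, against 13.3 to 16.4 CPM in vehicle males, median 14.5 CPM. 5 of 6 LLC1 males lay below all vehicle males. It fell by 0.43 ± 0.09 on the log2 scale in males (adjusted p = 0.00119), and in females the value was −0.25 ± 0.09 (adjusted p = 0.0849).

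Hsf1 rose in both sexes by a small amount. It had 39.2 to 49.4 CPM in LLC1 females, median 41.6 CPM, against 30.4 to 41.0 CPM in vehicle females, median 35.4 CPM. It had 39.1 to 56.1 CPM in LLC1 males, median 44.8 CPM, against 33.1 to 39.6 CPM in vehicle males, median 38.0 CPM. Groups overlapped at their edges in both sexes. The change on the log2 scale was 0.29 ± 0.09 in females (adjusted p = 0.0384) and 0.31 ± 0.09 in males (adjusted p = 0.00828). The female call was lost without LLC1 females 1-4 (adjusted p = 0.0752) or 2-3 (0.0781) or vehicle females 1-3 (0.0566), 2-1 (0.0563) or 2-2 (0.0692).

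Of the 3 subunits of the chaperonin CCT, the ring that folds actin and tubulin, Cct2 and Tcp1 rose in males. Cct2 had 120 to 138 CPM in LLC1 females, median 129 CPM, against 92.5 to 120 CPM in vehicle females, median 107 CPM. It had 115 to 205 CPM in LLC1 males, median 143 CPM, against 90.4 to 116 CPM in vehicle males, median 103 CPM. In each sex 5 of 6 LLC1 mice exceeded all vehicle mice. The log2 fold change was 0.53 ± 0.10 in males (adjusted p = 4.71e-04) and 0.26 ± 0.10 in females (adjusted p = 0.103). Tcp1 rose in males by 0.21 ± 0.07 (adjusted p = 0.0182), or 0.16 without LLC1 male 1-5 (adjusted p = 0.0572) and 0.17 without vehicle male 1-3 (adjusted p = 0.0566). Upper-quartile scaling (adjusted p = 0.0549), no filter (0.056) and the libraries of that comparison only (0.0541) lost this call too. In females Tcp1 gave 0.11 ± 0.07 (adjusted p = 0.339). Cct5 did not pass in either sex, at −0.14 in females and −0.02 in males. Subunits of the same ring thus had unequal fold changes. Unc45b, the chaperone that folds myosin, gave 0.17 in females and −0.06 in males and did not pass in either.

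**Figure D4:**
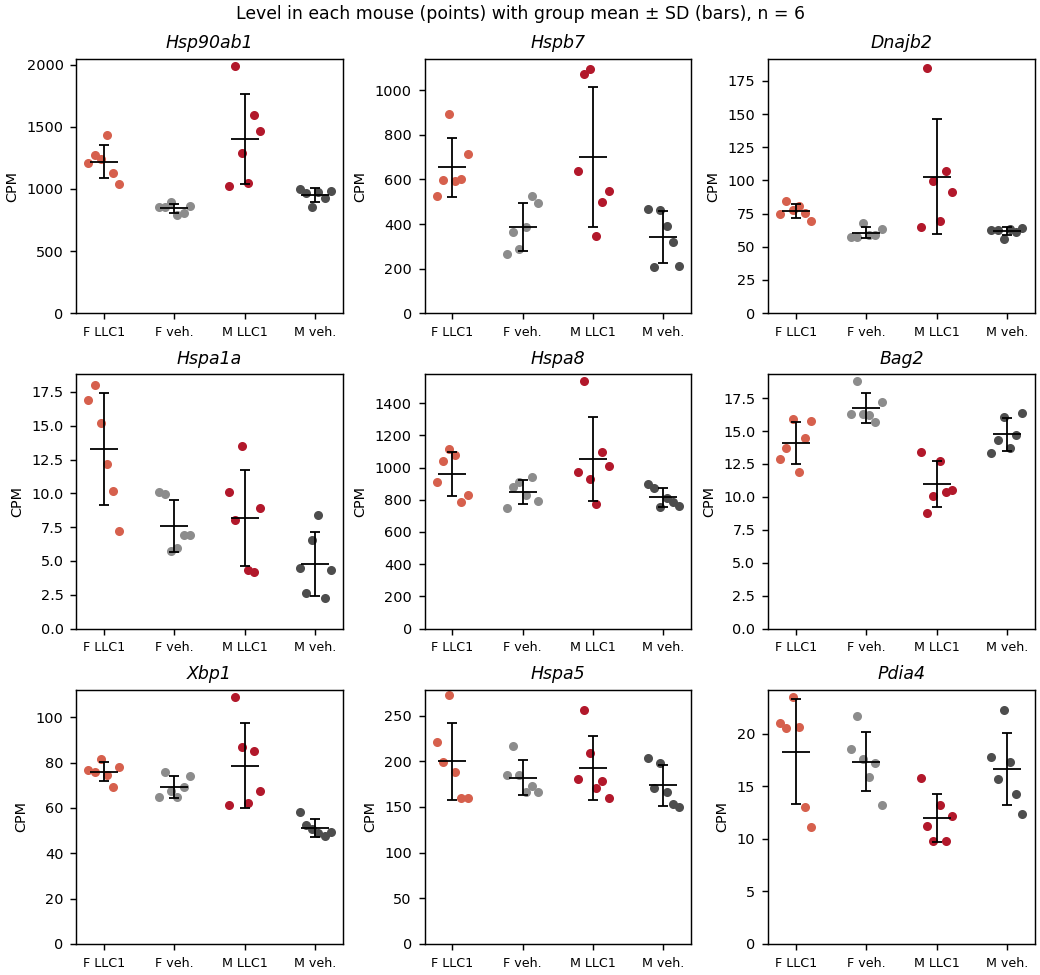
Level in CPM of 9 members in each mouse (points), with the group mean and SD (bars, n = 6), from left to right for LLC1 and vehicle females (F) and LLC1 and vehicle males (M). Hsp90ab1 and Dnajb2 are apart in both sexes and Xbp1 in males, Bag2 lies lower with LLC1, and the Hspa5 groups overlap; LLC1 male 1-5 holds the top point of the panel for Hsp90ab1, Dnajb2, Hspa8 and Xbp1.

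In the ER most folding chaperones gave small fold changes. Hspa5, the master chaperone and a standard readout of the unfolded protein response (ENSMUSG00000026864, chr2:34771970-34777547), had 160 to 272 CPM in LLC1 females, median 194 CPM, against 166 to 217 CPM in vehicle females, median 179 CPM. It had 160 to 256 CPM in LLC1 males, median 179 CPM, against 150 to 203 CPM in vehicle males, median 169 CPM. The groups overlapped widely in both sexes. Its log2 fold change was 0.14 ± 0.13 in females (adjusted p = 0.536) and 0.15 ± 0.13 in males (adjusted p = 0.368), or 0.03 without LLC1 female 2-1 and 0.05 without LLC1 male 1-5. Hsp90b1, the GRP94 gene, gave 0.18 ± 0.12 in females and 0.07 ± 0.12 in males and did not pass. Of the lectin chaperones, which hold newly made glycoproteins, Calr did not pass and Canx rose in males. Canx had 101 to 146 CPM in LLC1 females, median 119 CPM, against 96.9 to 112 CPM in vehicle females, median 106 CPM. It had 106 to 175 CPM in LLC1 males, median 121 CPM, against 92.5 to 115 CPM in vehicle males, median 105 CPM. 3 LLC1 males exceeded all vehicle males. The male log2 fold change was 0.28 ± 0.10 (adjusted p = 0.0285), and 0.17 without LLC1 male 1-5 (adjusted p = 0.121). The call was also lost without LLC1 male 2-1 (adjusted p = 0.0555) or vehicle male 2-5 (0.0684). Upper-quartile scaling (adjusted p = 0.0528) and the libraries of that comparison only (0.0683) lost the male call too. In females Canx gave 0.20 ± 0.10 (adjusted p = 0.208).

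The 3 disulfide isomerases among the members, which form and rearrange disulfide bonds, had negative values in males. The 6 other listed isomerases and oxidases did not share this, with 2 called higher and 1 lower in males and a median of 0.04. Of all genes, 19.5% were called higher and 16.8% lower in males. Pdia4 had 11.1 to 23.5 CPM in LLC1 females, median 20.6 CPM, against 13.2 to 21.7 CPM in vehicle females, median 17.4 CPM. It had 9.79 to 15.8 CPM in LLC1 males, median 11.7 CPM, against 12.4 to 22.3 CPM in vehicle males, median 16.5 CPM. LLC1 females lay on both sides of the vehicle range, and 4 of 6 LLC1 males lay below it. It fell in males by 0.47 ± 0.17 on the log2 scale (adjusted p = 0.0323), and in females the value was 0.07 ± 0.17 (adjusted p = 0.833). Pdia6 had 39.1 to 63.8 CPM in LLC1 females, median 47.6 CPM, against 43.2 to 56.1 CPM in vehicle females, median 46.8 CPM. It had 32.7 to 42.2 CPM in LLC1 males, median 36.0 CPM, against 34.9 to 54.6 CPM in vehicle males, median 45.8 CPM. 3 LLC1 males lay below all vehicle males. It fell in males by 0.28 ± 0.11 (adjusted p = 0.0464), and in females the value was 0.00 ± 0.11. Both male calls were close to the threshold. Pdia4 was lost without LLC1 males 1-5, 2-1 or 2-4 or vehicle males 1-1, 1-3 or 1-4, with adjusted p up to 0.0891. Pdia6 was lost without LLC1 males 1-5, 2-1, 2-4 or 2-5, any of vehicle males 1-1 to 1-4, or vehicle female 1-4, with adjusted p up to 0.117. With no filter on low counts both calls were lost as well, at adjusted p = 0.0505 for Pdia4 and 0.0532 for Pdia6. Limma-voom (adjusted p = 0.0533) and the libraries of that comparison only (0.0549) lost the Pdia6 call. Blocks on mouse numbers, given below, lost both calls too. Pdia3 gave −0.15 in males and 0.11 in females and did not pass.

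Xbp1 had the lowest adjusted p of any member in males, and Dnajb9 and Syvn1, which serve ER-associated degradation, rose as well. Xbp1 encodes the transcription factor that IRE1 activates by splicing its mRNA, which gene counts do not resolve (ENSMUSG00000020484, chr11:5520659-5525893). It had 69.1 to 81.5 CPM in LLC1 females, median 76.2 CPM, against 64.6 to 75.8 CPM in vehicle females, median 68.3 CPM. It had 61.1 to 109 CPM in LLC1 males, median 76.3 CPM, against 47.6 to 58.3 CPM in vehicle males, median 50 CPM. LLC1 males all stood above vehicle males, and the female groups overlapped. The log2 fold change was 0.62 ± 0.10 in males (adjusted p = 1.56e-04), a 1.54-fold rise, and 0.13 ± 0.10 in females (adjusted p = 0.456).

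Dnajb9, the J protein ERdj4 that serves BiP and the degradation machinery, had 30.9 to 36.9 CPM in LLC1 females, median 32.9 CPM, against 26.3 to 33.1 CPM in vehicle females, median 28.2 CPM. It had 31.7 to 62.7 CPM in LLC1 males, median 44.1 CPM, against 27.7 to 35.0 CPM in vehicle males, median 31.6 CPM. In each sex 3 LLC1 mice stood above all vehicle mice. It rose in males by 0.54 ± 0.14 on the log2 scale (adjusted p = 0.00361), and in females the value was 0.20 ± 0.14 (adjusted p = 0.377). Syvn1, the ubiquitin ligase HRD1, had 23.7 to 28.2 CPM in LLC1 females, median 25.2 CPM, against 23.9 to 27.4 CPM in vehicle females, median 24.6 CPM. It had 20 to 37.1 CPM in LLC1 males, median 27.4 CPM, against 21.3 to 23.2 CPM in vehicle males, median 21.8 CPM. 4 LLC1 males exceeded the narrow vehicle range and 1 lay below it. It rose in males by 0.36 ± 0.10 (adjusted p = 0.00939), and in females the value was 0.02 ± 0.10 (adjusted p = 0.944). The male calls of Xbp1, Dnajb9 and Syvn1 held with any single library left out. Those of Dnajb9 (adjusted p = 0.0664) and Syvn1 (0.112) were lost with a block on the full mouse number. The partner of HRD1, Sel1l, and Herpud1 did not pass, at −0.01 and 0.06 in males and 0.12 and 0.21 in females.

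The remaining ER members, Dnajb11, Dnajc3, Sdf2l1, Creld2 and Manf, passed in neither sex. Dnajb11 and Dnajc3 are J proteins of the ER lumen, and the last 3 are secreted or luminal proteins known as ER stress targets. Sdf2l1 gave −0.46 ± 0.23 in males and −0.18 ± 0.21 in females, and Creld2 −0.26 ± 0.15 in males and 0.35 ± 0.15 in females. Manf gave 0.05 in males and 0.06 in females, Dnajb11 0.05 and 0.12, and Dnajc3 0.12 and 0.04. Of the 8 genes with an ER stress element in a promoter window, Canx and Syvn1 rose and Pdia6 fell in males, and the other 5 did not pass; 3 of 8 called is near the 36.3% of all genes called in males.

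The 3 mitochondrial chaperones gave small values. Hspa9, the mitochondrial HSP70, had log2 fold changes of 0.05 ± 0.08 in females and 0.09 ± 0.08 in males. Hspd1 and Hspe1, the HSP60 chaperonin and its lid, gave −0.09 and 0.01 in females and −0.09 and 0.17 in males. None was called in either sex by edgeR, DESeq2 or limma-voom, and 0 had an unadjusted p under 0.05 in the edgeR fit. Of the genes with a heat shock element in a promoter window, Hsph1 and Dnajb6 rose in males, and Hspd1 and Hspe1 passed in neither sex. Of all genes, 36.3% were called in males and 19.5% were called higher, and so few genes cannot be set apart from these shares.

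The LLC1 effect was then compared between females and males. No member passed that test in edgeR, DESeq2 or limma-voom, and 0% of all genes did in edgeR. At an unadjusted p under 0.05 stood 4 of the 46 members, a smaller share than the 12.3% of all genes (2191 of 17773). All 4 were ER genes, and none passed adjustment. The difference, female minus male, was −0.49 ± 0.15 for Xbp1 (adjusted p = 0.254), 0.61 ± 0.22 for Creld2 (adjusted p = 0.296), 0.55 ± 0.24 for Pdia4 (adjusted p = 0.367) and −0.34 ± 0.15 for Syvn1 (adjusted p = 0.357). Calls seen in males alone are therefore not shown to differ from females.

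Vehicle females and vehicle males differed in 1 member, against 6.23% of all genes. Xbp1 was higher in vehicle females, with the values given above of 64.6 to 75.8 CPM in vehicle females against 47.6 to 58.3 CPM in vehicle males. These ranges did not overlap. The log2 difference was 0.44 ± 0.10 (adjusted p = 0.0124), and the call held with any single library left out. A block on the full mouse number lost it (adjusted p = 0.0929). A further 11 members had an unadjusted p under 0.05 only. With the called one that is 12 of 46 members, against 3610 of all 17773 genes. LLC1 males, at 61.1 to 109 CPM, spanned the range of both female groups.

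Within the LLC1 groups single mice often held the highest value. Among LLC1 males, mouse 1-5 was highest for 28 of the 46 members, namely 16 cytosolic, 9 ER and all 3 mitochondrial genes. Among LLC1 females, mouse 2-1 was highest for 25 members, of which 11 were cytosolic, 11 ER and 3 mitochondrial. The library of LLC1 male 1-5, with 34.9 M counts, lay within the range of the other LLC1 males. That of LLC1 female 2-1, with 33.6 M counts, was the smallest of its group, the next holding 35.75 M. Of the 19 male calls, 11 held with any single library left out: Hsp90ab1, Hspb1, Hspb7, Dnajb2, Dnajb6, Bag2, Hsf1, Cct2, Dnajb9, Syvn1 and Xbp1. Of the 3 female calls, that of Hsp90ab1 did.

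**Figure D5:**
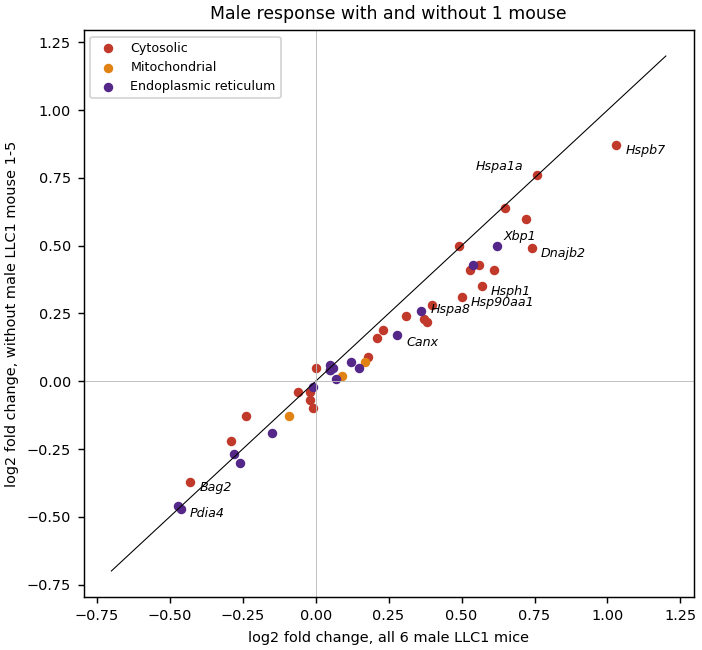
Male log2 fold change of each member with all 6 LLC1 males (x axis) and without LLC1 male 1-5 (y axis), coloured by compartment, with a line of equality. Most genes with a positive value lie below the line, as Hsph1 does at 0.57 and 0.35 and Dnajb2 at 0.74 and 0.49, while Pdia4 stays at −0.47 and −0.46 and Hspa1a at 0.76 on both axes.

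Another 95 genes of the same pathways, 93 of them tested, did not show the order of the compartments seen among the members. In males 14 of 43 other cytosolic genes were higher and 3 lower, which is 32.6% higher with a median of 0.06, and 15 of 42 other ER genes were higher and 4 lower, which is 35.7% higher with a median of 0.09. In females 1 other cytosolic gene was higher (2.33%), and 2 other ER genes were higher (4.76%) and 2 lower. Of all genes, 4.97% were called higher in females and 4.95% lower, so neither list exceeded the background for higher calls. The cytosolic gene was Hspa1l, an HSP70 best known from testis, at 0.29 ± 0.09 (adjusted p = 0.0437). Among the cytosolic genes called in males, the 4 with the largest values were Fkbp5, an HSP90 co-chaperone of steroid receptors, at 1.60 ± 0.32 (adjusted p = 7.54e-04), Hspa12a, a distant HSP70 relative, at −0.68 ± 0.15, the HSP90 co-chaperone Ptges3 at 0.65 ± 0.14, and Hsf2, a relative of HSF1, at 0.63 ± 0.15. 4 of the 5 other CCT subunits tested rose in males, against 19.5% of all genes, with a median of 0.27 over the 5. Hspa1l shares 71.9% of its exon length with an antisense transcript and lost its call with 8 of the 24 libraries left out, with adjusted p up to 0.0912; these were LLC1 females 1-4, 2-1, 2-3 and 2-5 and vehicle females 1-1, 1-3, 2-1 and 2-3.

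Among the other ER genes called in males, the 4 with the largest values were Ppp1r15a, Nploc4, Atf4 and Uggt1. Ppp1r15a, the GADD34 gene that reverses eIF2α phosphorylation, had 40.9 to 120 CPM in LLC1 males against 18.2 to 27.8 CPM in vehicle males, without overlap, and a log2 fold change of 1.76 ± 0.20 (adjusted p = 2.39e-06). Atf4, the transcription factor translated when eIF2α is phosphorylated, had 144 to 291 CPM in LLC1 males against 107 to 130 CPM in vehicle males, without overlap, and a log2 fold change of 0.80 ± 0.13 (adjusted p = 1.28e-04). Nploc4, an adaptor of the p97 segregase, gave 1.21 ± 0.23 (adjusted p = 5.15e-04), and Uggt1, the glycoprotein folding sensor, 0.64 ± 0.12 (adjusted p = 5.04e-04). Of the 11 sensors and regulators of the unfolded protein response, 5 rose and 2 fell in males, where 19.5% of all genes were called higher and 16.8% lower. Named after their values were seen, Atf6 at 0.46, Ern1, the IRE1 gene, at 0.44 and Atf6b at 0.34 rose beside those above, and Eif2ak3, the PERK gene, at −0.40 and Creb3l2 at −0.49 fell. The other 4, Ddit3, Trib3, Mbtps1 and Mbtps2, did not pass in males. In females Pdia5 rose by 0.60 ± 0.14 (adjusted p = 0.00625) and Ppp1r15a by 0.66 ± 0.20 (adjusted p = 0.0341), and the translocon genes Sec61b, at −0.63 ± 0.15 (adjusted p = 0.0094), and Ssr3, at −0.31 ± 0.08 (adjusted p = 0.0122), fell. The Ppp1r15a call was lost without LLC1 female 1-4 or 2-4 or vehicle female 1-3, 1-4, 2-1 or 2-2, with adjusted p between 0.0513 and 0.0686. Ssr3 was lost without LLC1 female 2-3 (adjusted p = 0.0528).

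Other mitochondrial chaperone and protease genes rose in males in 3 of 8 cases, against 19.5% of all genes: Clpp, the matrix protease, at 0.52 ± 0.14 (adjusted p = 0.00556), its unfoldase Clpx at 0.35 ± 0.11 (adjusted p = 0.013), and Grpel1, the exchange factor of mitochondrial HSP70, at 0.39 ± 0.11 (adjusted p = 0.00653). Without LLC1 male 1-5 Clpp gave 0.30 and Grpel1 0.25, both still called, and without LLC1 male 2-1 Clpx gave 0.23 and was lost (adjusted p = 0.0592). Between vehicle females and vehicle males, Sec61b at 0.79 and Vimp, a gene of ER-associated degradation, at 0.39 were higher in females. Of all genes, 2.95% were called higher there and 3.28% lower. Vimp lost its call with a block on the full mouse number (adjusted p = 0.142). The same vehicle females were the reference for the female fall of Sec61b with LLC1, so these 2 results are not independent.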

How the data were processed

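Gastrocnemius RNA of 24 mice was made into poly(A) libraries, per the labels' protocols, with a TruSeq version 2 kit that keeps no strand and with 12 PCR cycles. CASAVA, STAR, featureCounts and the mm10 build are named in the submitters' processing notes, with no versions. The deposited table holds raw counts per gene that the authors made; how reads shared by near-identical genes were counted is not given in the sources used here. Counts of all 43346 genes were tested with the quasi-likelihood test of edgeR 4.0.16 (filterByExpr, TMM, 4 group means over 24 libraries, 20 residual degrees of freedom) with Benjamini-Hochberg adjustment over the 17773 genes kept, and called at an adjusted p under 0.05. Levels (CPM) are counts scaled to a common TMM library size, and levels per kilobase use the gene length in the table. DESeq2 1.42.0, limma-voom (limma 3.58.1), other scaling factors, no filter, replicate blocks and leaving out each library were tried. The method was tested on simulated counts. Each library is taken as 1 mouse, and the p-values rest on the spread among libraries of a group.

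Named genes were all members, with values in every group for 8 key members and for the 4 largest called changes per compartment and comparison, and the 4 largest called changes among other pathway genes; other called members are described as well. The members and lists were chosen with earlier results of these data known. Depth limits low genes such as Sdf2l1 and Hspa1b most. Coordinates are those of the deposited table, and promoter windows are RefSeq's. Hspa1a and Hspa1b were also summed, an alternative added after the data were seen. One gene that the rule names is not reported here.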

Additional observations from a re-analysis of the deposited data

Results flagged for a closer look

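In 11 of 184 sets of 6 mice (46 members in 4 groups), 1 mouse stood apart from the other 5 by a gap above the 95% critical value of Dixon's ratio; chance flags about 1 in 20 such sets. LLC1 male 1-5 was the highest of its group for Hsph1 (182 CPM, next 109), Dnajb2 (185 CPM, next 107), Tcp1 (256 CPM, next 220), Hsp90b1 (148 CPM, next 122) and Canx (175 CPM, next 132). LLC1 female 2-1 was highest for Cryab (1143 CPM, next 740) and Hspe1 (53.6 CPM, next 45.1). Among vehicle mice, male 1-3 was lowest for Dnajb2 (55.7 CPM, next 61.4) and Unc45b (304 CPM, next 409), female 1-1 was lowest for Hspa9 (320 CPM, next 369), and female 1-3 was highest for Hspa5 (217 CPM, next 185).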

How the results depend on the processing

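No named fold change reversed under any alternative tried. Of the recomputed values of named genes, 390 of 450 in females, 1014 of 1090 in males and 125 of 128 between vehicle groups kept their side of the threshold. In females, 3 members were called, against 8 with DESeq2, 1 with no filter, 10 with the libraries of that comparison only, 1 at an adjusted p under 0.01, and 1 to 7 with a library left out. The share of all genes called also moved. In females 4.97% were higher and 4.95% lower in the main fit, against 6.32% and 6.41% with DESeq2. They were 2.43% and 1.85% with no filter, and 8.07% and 6.68% with the libraries of that comparison only. In males, 19 were called, against 11 at an adjusted p under 0.01 and 11 to 23 with a library left out. With a library left out, 15.0% to 21.3% of all genes were called higher in males, against 19.5% in the main fit. Between vehicle females and vehicle males, 1 was called, against 3 with DESeq2, 5 with the libraries of that comparison only, 0 at an adjusted p under 0.01, and 1 to 3 with a library left out. Of all genes, 2.95% were called higher there and 3.28% lower, against 4.06% and 4.51% with DESeq2. They were 4.02% and 5.18% with the libraries of that comparison only. The interaction gave 0 members under every alternative. The cause of these shifts was not tested, beyond the stricter threshold itself.

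Mouse numbers are shared across groups, but same-numbered mice did not deviate together (r = 0.063, −0.167 and −0.116 in females, and −0.065, −0.011 and −0.012 in males), so they were not treated as paired. The labels give the first digit no meaning; mean deviations of mice sharing it correlated between LLC1 and vehicle mice (r = 0.378 in females and 0.133 in males), a hint from the data only. With a replicate block on the full number, 1 member was called in females, 9 in males and 0 between vehicle groups. Of all genes, 1.98% were then called higher and 0.72% lower in females, and 10.9% and 9.39% in males. Between vehicle groups the shares were 0.641% and 0.872%. The male calls lost with this block were those of Hspa8, Hsph1, Hspb7, Bag3, Tcp1, Canx, Pdia4, Pdia6, Dnajb9 and Syvn1. The female calls of Hsp90ab1, Hspb2 and Hsf1 and the vehicle call of Xbp1 were lost too. With a replicate block on the first digit, 7 were called in females, where 5.25% of all genes were called higher and 5.31% lower. In males 15 cytosolic members were then higher and 2 lower, and 4 ER members were higher. Of all genes, 19.7% were called higher in males and 16.4% lower. Hspa1a (adjusted p = 0.0474 in females and 0.0159 in males) and Hspa1b (0.0226 and 0.0279) passed with this block. The groups were not evenly spread over the first digits. With either block no ER member was called lower in males: Pdia4 had adjusted p = 0.0958 with the full number and 0.0681 with the first digit, and Pdia6 0.225 and 0.0989. In females Creld2 was called higher with either block (adjusted p = 0.0409 with the full number and 0.0469 with the first digit). Depth limits the least abundant members: Sdf2l1 and Hspa1b lay near 1 to 2 CPM per kilobase in vehicle mice.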
